A study of Mus musculus with 12 samples.

Results

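Integrins and laminins were followed in RNA-seq of the prostate from male mice descended from pregnant females given chlordecone, an organochlorine insecticide also called kepone. The genes were all rows of the deposited F1 and F3 tables whose symbol names an integrin subunit by number (Itga or Itgb and a number) or a laminin chain (Lama, Lamb or Lamc and a number). This rule took 32 genes of the 28075 listed in either table, and all 32 stood both among the 19091 genes of the F1 table and among the 26023 of the F3 table. They were 12 integrin alpha subunits, 9 integrin beta subunits and 11 laminin chains. The groups were F1 chlordecone with 3 libraries, F1 control with 2, F3 chlordecone with 3 and F3 control with 3. In the chlordecone groups the F0 female had received 100 µg/kg/day between the embryonic days E6.5 and E15.5. F1 males were her exposed offspring and F3 males came from crossing that progeny onward. Of the labelled samples, F1 control 3 was not analysed here. The labels give no strain, age or vehicle, and do not say whether a sample was 1 male or a pool, or whether samples shared a dam, so p-values measure the spread between these samples.

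Laminins are secreted trimers of 1 alpha, 1 beta and 1 gamma chain that polymerise into the sheet of every basement membrane. Integrins are transmembrane pairs of 1 alpha and 1 beta subunit that hold cells to laminin, collagen or fibronectin and signal through talin, kindlin and focal adhesion kinase. In the prostate, basal epithelial cells sit on laminin-332, which contains the Lama3 and Lamb3 chains and which they bind through the integrin pair of Itga6 and Itgb4 in hemidesmosomes. Smooth muscle around the gland carries the integrin pairs of beta1 with alpha1, alpha5, alpha7 and alpha8, and Itga2b with Itgb3 is best known as the fibrinogen receptor of platelets.

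Total counts ran from 17228539 to 28061760 per F1 library and from 71672418 to 114762135 per F3 library. Levels are given in CPM, counts scaled to the size of their library, and compared between genes as CPM per kilobase of annotated exon. The probasin gene Pbsn, which defines mouse prostate epithelium, was present in every library, at 37323 CPM or more in F1 and at 17322 CPM or more in F3. F1 libraries stood apart from each other in markers of neighbouring tissues. Summed over the markers in the table, seminal vesicle genes reached 186660, 428680 and 528810 CPM in F1 chlordecone 1, 2 and 3, against 117810 and 120460 CPM in the F1 controls. Its 6 markers did not move together: 3 were higher without overlap, where 16.2% of all genes stood. Svs1 and Svs6 had log2 fold changes of -0.25 and -0.35. In chlordecone 3 Svs1 stood at 0.783 CPM, against 275 and 239 CPM in the F1 controls. Vas deferens and epididymis genes summed to 44289, 103 and 13929 CPM in F1 chlordecone 1, 2 and 3, against 24.9 and 24.8 CPM in the F1 controls. In F3 the first list summed to at most 67.6 CPM and the second to at most 0.341 CPM in any library.

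The common beta1 subunit Itgb1, which pairs with most alpha subunits, had the highest level per kilobase in both generations, at 29.7 ± 21.2 CPM per kb in F1 (SD, n = 5 libraries) and 61.1 ± 5.31 CPM per kb in F3 (SD, n = 6 libraries). In F1 it was followed by Itgb5, a vitronectin receptor subunit, at 5.55 ± 1.11, Itga6 at 4.95 ± 2.166 and Lamb2 at 4.22 ± 1.62 CPM per kb. These 3 lay within each other's spread. In F3 it was followed by the laminin receptor subunit Itga3 at 16.6 ± 2.74, Lama3 at 15.4 ± 5.45, Itgb5 at 14 ± 1.18 and Lamb2 at 12.6 ± 1.56 CPM per kb, again without a gap larger than the spread. Itga3 averaged 3.29 CPM per kb in F1 and Itga6 11.3 CPM per kb in F3, and the lowest means were 0.0416 CPM per kb for Itgb8 in F1 and 0.000364 CPM per kb for Itgb2l in F3. Itgb2l, a paralog of the leukocyte subunit Itgb2, had 35 counts over all F1 libraries and 1 count over all F3 libraries and was not tested within a generation. Generation and table are the same split, so the levels of F1 and F3 are not set against each other here.

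**Figure D1:**
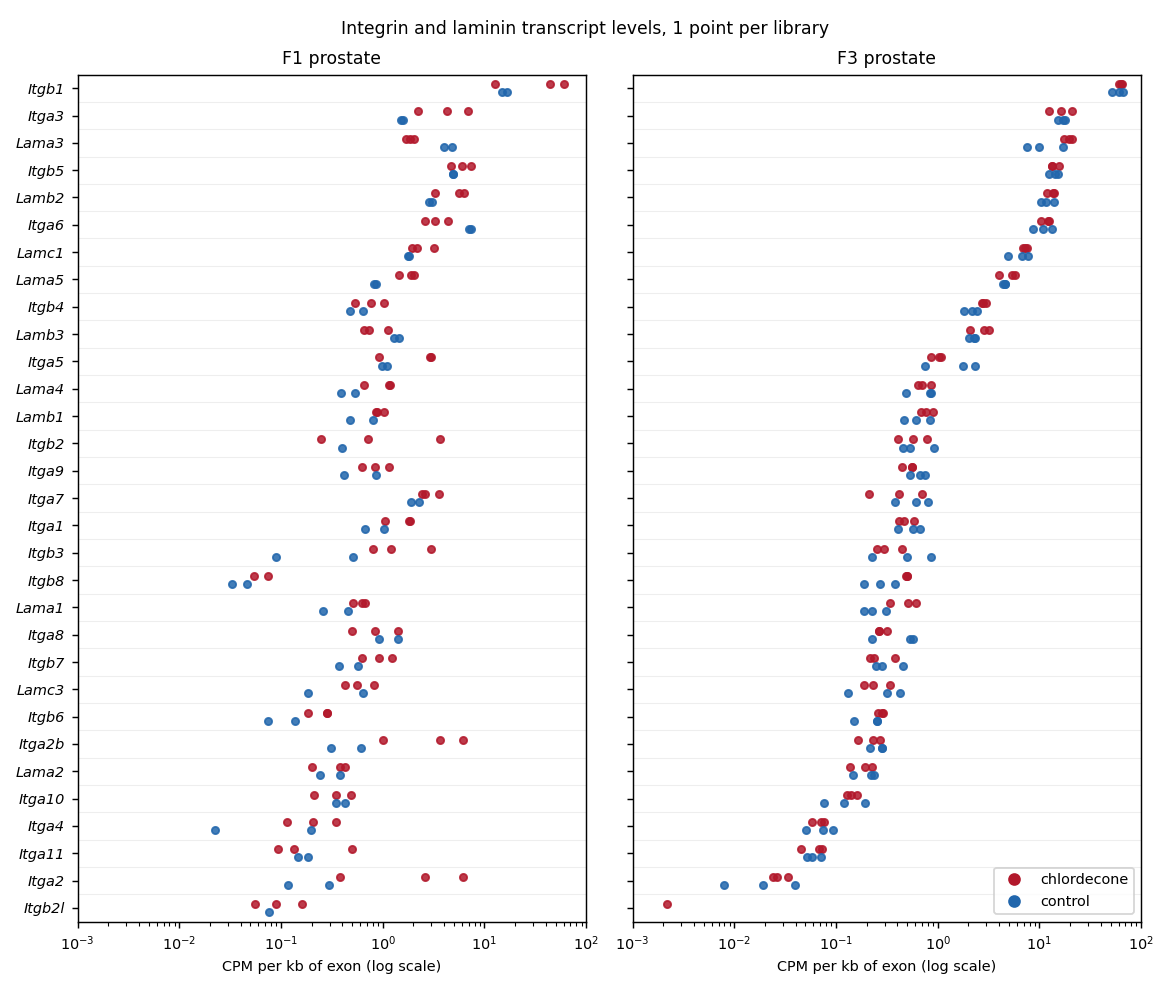
Level of 31 of the 32 integrin and laminin genes in CPM per kilobase of exon (log axis) in F1 (left) and F3 (right) prostate, 1 point per library, with chlordecone in red above control in blue and genes ordered by their F3 mean. 3 values at 0 in F1 and 5 in F3 are not drawn; Itgb1 is at the top in both generations.

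In F1 prostate, most integrin and laminin genes had log2 fold changes above 0 after chlordecone, while Lama3, Itga6 and Lamb3 were lower in every chlordecone library than in both controls. No member passed the adjusted p of 0.05 in the edgeR quasi-likelihood test (0 of 31 tested, lowest adjusted p = 0.170), in a comparison that called 5 of 17804 genes (0.0281%), 2 higher (0.0112%) and 3 lower (0.0169%). At an unadjusted p under 0.05 stood 8 members on the higher side, where 7.93% of all genes stood, and 2 on the lower side, where 3.6% stood. Together these 10 were 32.3% of the members, against 11.5% of all genes. The 3 chlordecone and 2 control libraries did not overlap for 14 members that were higher, where 16.2% of all genes stood, and 3 that were lower, where 15.1% stood. Together they were 54.8% of the members against 31.3% of all genes. The log2 fold change was above 0 for 26 of the 31, or 83.9%, against 51.4% of all genes, and its median was 0.55 against 0.02 for all genes. The count of called members depended on 1 library: without F1 chlordecone 2, edgeR called 11 of 31 members, 9 higher and 2 lower, in a fit that called 2604 of 17394 genes (15%). With DESeq2, 4 of 31 members passed, where 719 of 17804 genes did (4.04%): Itga2 and Itga2b higher, Itga6 and Lama3 lower.

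**Figure D2:**
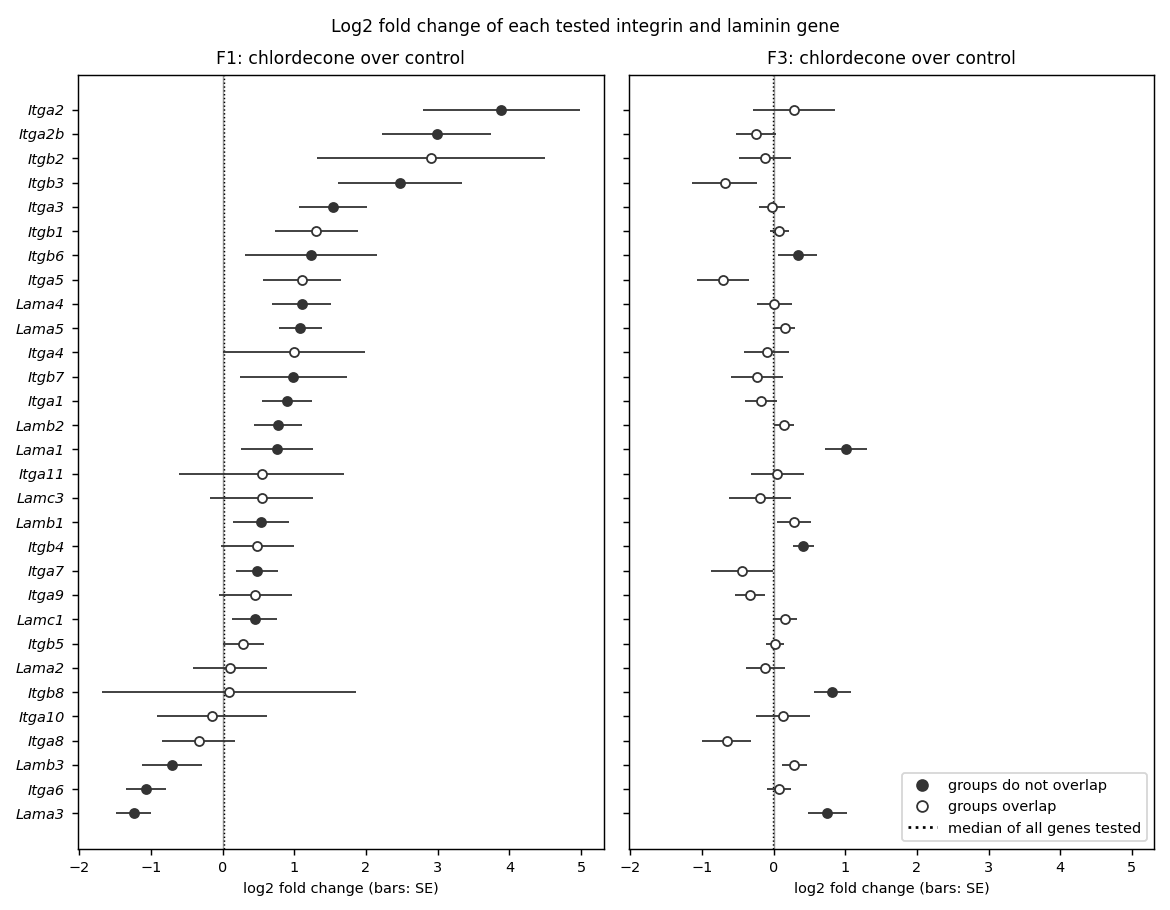
Log2 fold change of chlordecone over control with its standard error for 30 of the 31 tested genes in F1 (left) and F3 (right), ordered by the F1 value. Filled points mark groups that do not overlap, 17 in F1 and 5 in F3 among those drawn, and the dotted line is the median of all genes tested, 0.02 in F1 and -0.01 in F3.

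Lama3, the alpha chain of laminin-332, had the smallest p of all members in F1. It stood at 19.96, 21.9 and 18.3 CPM in chlordecone libraries, against 51.4 and 43.3 CPM in control libraries. All 3 chlordecone values were below both controls, at a log2 fold change of -1.24 (SE 0.24, edgeR adjusted p = 0.170). Itga6, the alpha subunit of the hemidesmosome receptor and of another laminin receptor with beta1, stood at 23.6, 29.8 and 39.8 CPM in chlordecone libraries, against 66.2 and 64.0 CPM in control libraries. It was lower in all 3 chlordecone libraries, at -1.07 on the log2 scale (SE 0.28, edgeR adjusted p = 0.235). Lamb3, the beta chain of laminin-332, had 4.36, 7.47 and 4.83 CPM in chlordecone libraries, against 8.54 and 9.56 CPM in control libraries, without overlap, at a log2 fold change of -0.71 (SE 0.41, edgeR adjusted p = 0.575).

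Their partner Itgb4 overlapped between the F1 groups. Itgb4, the beta subunit whose long tail binds plectin, stood at 5.42, 7.20 and 3.77 CPM in chlordecone libraries, against 4.51 and 3.33 CPM in control libraries, at 0.48 on the log2 scale (SE 0.51, edgeR adjusted p = 0.781). Chlordecone 2 was its highest library and chlordecone 3 lay between the controls. Lama3, Lamb3, Itga6 and Itgb4, called the laminin-332 group here, had a median log2 fold change of -0.89. In the same libraries the summed markers of basal epithelium were higher, at 60.1, 90.6 and 65.3 CPM in chlordecone libraries, against 28.9 and 43.4 CPM in control libraries. These markers are keratins, desmosome genes and the basal cell factor Trp63. For 5 of the 6 tested markers the groups did not overlap and chlordecone was higher, where 16.2% of all genes stood. The other was Krt17, at a log2 fold change of -0.23. The largest part of the sum was Krt15, at 31.0, 65.3 and 35.6 CPM in chlordecone libraries, against 20.7 and 30.3 CPM in control libraries. Fewer cells of a type and less RNA per cell cannot be told apart in whole tissue.

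**Figure D3:**
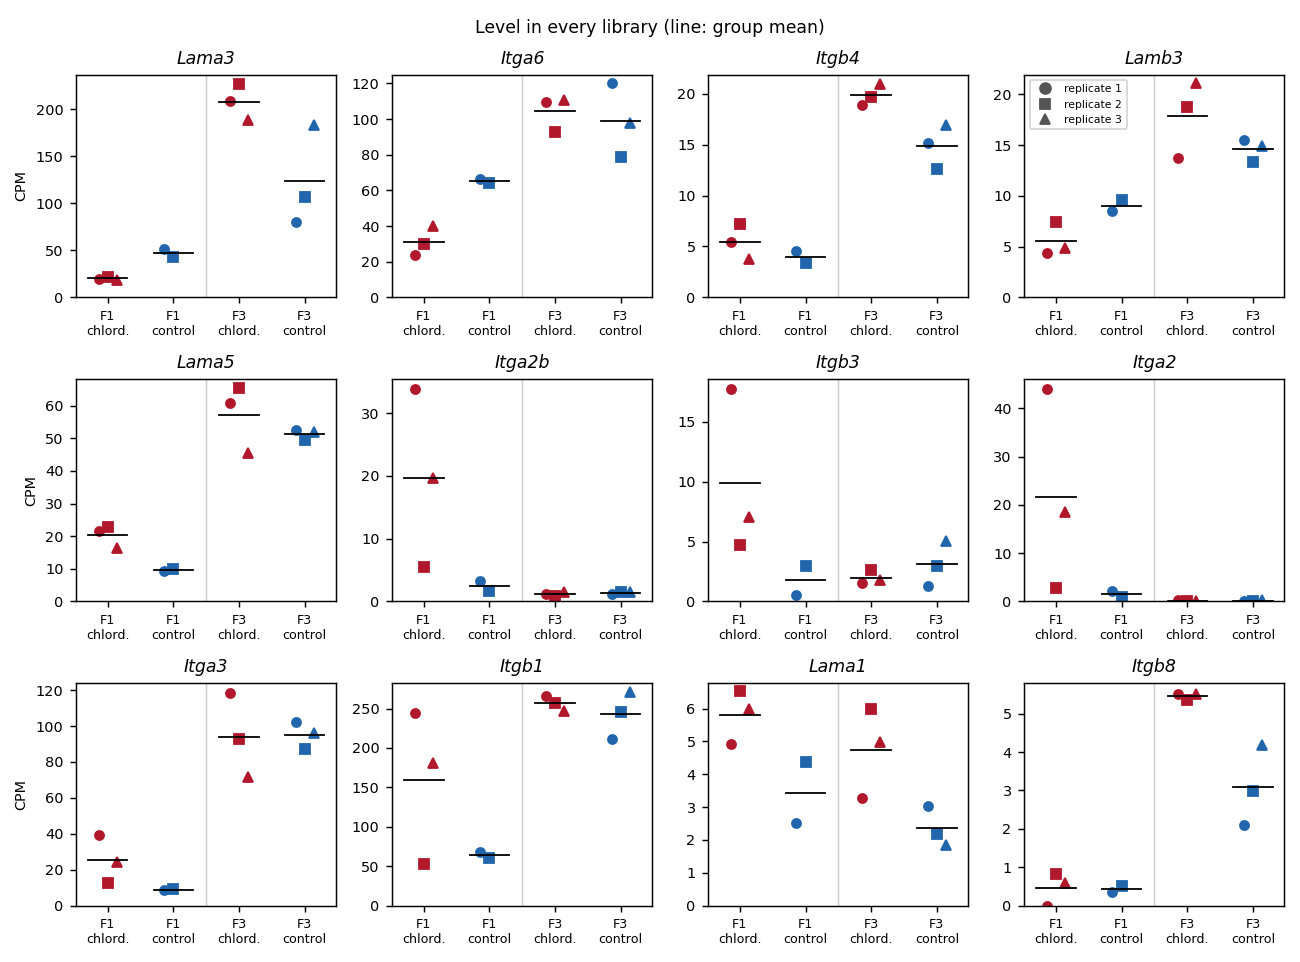
CPM of 12 integrin and laminin genes in every library, with chlordecone (red) left of control (blue) in each generation, a marker shape per replicate number and a line at the group mean. The Lama3 values of chlordecone libraries lie below both controls in F1 and above all controls in F3, and among the F1 libraries Itga2b, Itgb3, Itga2, Itga3 and Itgb1 are highest in chlordecone 1.

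Of all laminins, 9 of 11 chains had a log2 fold change above 0 in F1, or 81.8%, against 51.4% of all genes. Lama5, the most widespread laminin alpha chain of epithelia, stood at 21.6, 23.0 and 16.4 CPM in chlordecone libraries, against 9.33 and 9.84 CPM in control libraries. Every chlordecone value exceeded both controls, at a log2 fold change of 1.08 (SE 0.30, edgeR adjusted p = 0.247). Lamb2, a beta chain shared by smooth muscle and epithelial laminins, stood at 34.1, 19.7 and 38.5 CPM in chlordecone libraries, against 17.2 and 18.7 CPM in control libraries, at 0.77 on the log2 scale (SE 0.33, edgeR adjusted p = 0.431). Lama1, an alpha chain best known from the embryo, stood at 4.91, 6.54 and 5.98 CPM in chlordecone libraries, against 2.52 and 4.36 CPM in control libraries, at 0.76 (SE 0.50, edgeR adjusted p = 0.624). Lama4, Lamb1 and Lamc1 also had chlordecone values that were all above both controls, while Lama2 and Lamc3 overlapped.

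For Itga2, Itga2b and Itgb3 the F1 chlordecone libraries lay far apart from each other. Itga2, the alpha subunit of an epithelial and platelet collagen receptor, stood at 43.9, 2.73 and 18.5 CPM in chlordecone libraries, against 2.096 and 0.844 CPM in control libraries. Chlordecone 1 and 3 lay far above the controls and chlordecone 2 just above them, at a log2 fold change of 3.89 (SE 1.09, edgeR adjusted p = 0.248). Itga2b, the alpha subunit of the platelet fibrinogen receptor, stood at 33.9, 5.45 and 19.7 CPM in chlordecone libraries, against 3.30 and 1.69 CPM in control libraries, at 2.98 (SE 0.76, edgeR adjusted p = 0.226). Its partner Itgb3, picked after its values were seen, stood at 17.7, 4.74 and 7.09 CPM in chlordecone libraries, against 0.524 and 3.00 CPM in control libraries, at 2.48 (SE 0.87, edgeR adjusted p = 0.336). The order of the 3 chlordecone libraries was the same for Itga2, Itga2b and Itgb3, with chlordecone 1 the highest and chlordecone 2 the lowest.

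Platelet markers were low in every F1 library. Their sum was 6.85, 12.7 and 5.34 CPM in chlordecone libraries, against 7.70 and 5.90 CPM in control libraries, the largest part of it from the platelet glycoprotein gene Gp1ba at 3.88, 8.29 and 2.67 CPM in chlordecone libraries, against 4.30 and 4.17 CPM in control libraries. The platelet chemokine gene Pf4 stood at 2.22, 3.05 and 2.30 CPM in chlordecone libraries, against 1.57 and 0.797 CPM in control libraries, above both controls in each. It was the 1 of 3 tested markers without overlap, or 33.3%, against 31.3% of all F1 genes, of which 16.2% were higher. Gp9 was at 0 in chlordecone 2 and 3 and in control 1. The part of platelets in the Itga2b and Itgb3 values was not tested.

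Among receptors for laminin, Itga3, which pairs with beta1, stood at 39.6, 12.6 and 24.3 CPM in F1 chlordecone libraries, against 8.54 and 9.04 CPM in control libraries. All 3 chlordecone values exceeded both controls, at a log2 fold change of 1.54 (SE 0.47, edgeR adjusted p = 0.294). Itga7, the laminin receptor subunit of muscle, stood at 19.6, 29.0 and 21.0 CPM in chlordecone libraries, against 18.2 and 15.2 CPM in control libraries, without overlap. Itgb1 itself stood at 244, 52.3 and 181 CPM in chlordecone libraries, against 68.1 and 60.5 CPM in control libraries. Chlordecone 2 lay below both controls and the other two chlordecone libraries far above, at 1.31 (SE 0.57, edgeR adjusted p = 0.440).

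Of the fibronectin and vitronectin receptors, Itga5 stood at 14.3, 14.6 and 4.56 CPM in F1 chlordecone libraries, against 4.82 and 5.48 CPM in control libraries, at a log2 fold change of 1.11 (SE 0.54, edgeR adjusted p = 0.484). Here chlordecone 3 lay below both controls. Itgb5 stood at 25.9, 16.6 and 21.3 CPM in chlordecone libraries, against 17.4 CPM in each of the control libraries, at 0.29 (SE 0.29, edgeR adjusted p = 0.763). Itgb8, a subunit of a receptor that activates latent TGF-beta, was at the edge of detection, with 0, 15 and 13 counts in chlordecone libraries, against 7 and 11 counts in control libraries (log2 fold change 0.08, SE 1.77, edgeR adjusted p = 0.991). Itga1, Itgb6 and Itgb7 had chlordecone values all above both controls. Itga4, Itga8, Itga9, Itga10, Itga11 and Itgb2 overlapped. Itgb2, the beta subunit of leukocyte integrins, was at 11.05 CPM in chlordecone 3 and at most 2.18 CPM in every other F1 library, and the summed leukocyte markers were 277 CPM in chlordecone 3 and at most 53.3 CPM in the others. The largest part of the 277 CPM was Lyz2 at 246.5 CPM, and the groups overlapped for each of the 5 tested leukocyte markers.

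RefSeq promoters (GRCm38.p6) were found for 21 of the 32 members and for 6 of the 10 given here with the smallest p in a generation. For 3 of these, Itga2, Lama5 and Itga5, the 250 bases before the start lie outside the gene and outside any annotated exon, and are printed here 5′ to 3′ because Itga2 and Lama5 were higher in F1 chlordecone libraries and Itga5 had the smallest p of the members below 0 in F3. Capitals mark GGGCGG or its reverse complement, the core of a GC box. The windows are chr13:114932101-114932350, chr2:180225860-180226109 and chr15:103366792-103367041, all on the minus strand.
Itga2: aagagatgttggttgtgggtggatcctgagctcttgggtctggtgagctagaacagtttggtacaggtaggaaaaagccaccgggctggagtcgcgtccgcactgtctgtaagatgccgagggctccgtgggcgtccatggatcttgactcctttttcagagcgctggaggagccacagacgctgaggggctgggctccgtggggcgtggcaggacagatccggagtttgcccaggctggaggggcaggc
Lama5: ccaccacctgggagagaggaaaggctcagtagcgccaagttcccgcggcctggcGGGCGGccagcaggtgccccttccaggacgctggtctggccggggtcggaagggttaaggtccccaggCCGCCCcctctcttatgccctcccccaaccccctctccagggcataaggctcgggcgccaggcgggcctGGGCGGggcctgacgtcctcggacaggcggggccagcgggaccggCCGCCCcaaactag
Itga5: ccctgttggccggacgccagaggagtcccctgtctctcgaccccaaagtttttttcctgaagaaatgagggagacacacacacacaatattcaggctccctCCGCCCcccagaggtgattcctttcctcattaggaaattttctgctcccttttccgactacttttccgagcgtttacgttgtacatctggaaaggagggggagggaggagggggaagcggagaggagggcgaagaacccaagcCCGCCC

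The Itga2 window has no GC box, the Lama5 window has 4 and the Itga5 window has 2, where 32.7% of the 32851 RefSeq promoter windows of this length hold at least 1. None of the 3 holds CACGTG, an E-box, found in 6% of windows, or AGATAA, the motif of GATA factors, found in 10%, each searched on both strands. The windows are 60.8% G and C for Itga2, 72.4% for Lama5 and 55.6% for Itga5.

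Several marker lists also differed between the F1 libraries. Of all genes tested in F1, 16.2% were higher after chlordecone without overlap and 15.1% were lower. For vas deferens and epididymis, Akr1b7 and Crisp1 made up nearly the whole sum, and Adam7 and Lcn5 were each under 2 CPM in every F1 library, with Adam7 at 0 in control 2 and Lcn5 at 0 in chlordecone 2 and control 2. In groups that did not overlap, 2 of its 3 tested markers were higher after chlordecone. Smooth muscle markers summed to 12089, 4809 and 7610 CPM in chlordecone libraries, against 4180 and 4082 CPM in control libraries, with 8 of 9 markers higher in every chlordecone library than in both controls. Urothelium markers summed to 74.2, 14.6 and 73.6 CPM in chlordecone libraries, against 28.7 and 21.0 CPM in control libraries, with 4 of 6 markers not overlapping and higher. For the prostate luminal list, 3 of 7 markers did not overlap and were lower after chlordecone. The part of these tissues in the integrin and laminin values was not tested.

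Chlordecone 2 had the lowest vas deferens and epididymis sum of the chlordecone libraries, and stood apart in other lists. Adipocyte markers summed to 109, 297 and 80.9 CPM in chlordecone 1, 2 and 3, against 30.7 and 32.4 CPM in control libraries, and Schwann cell and nerve markers to 61.5, 172 and 66.6 CPM in chlordecone 1, 2 and 3, against 36.5 and 38.5 CPM in control libraries. The part of these tissues was not tested. The Lama3, Itga6 and Lama5 levels of chlordecone 2 lay outside the control values on the same side as in the other 2 chlordecone libraries, whereas its Itgb1 level was below both controls. With chlordecone 1 and 3 both left out, a choice made after the data were seen, edgeR called Itga6 and Lama3 lower and Itga5 and Lama5 higher, 4 of 31 members in a fit that called 1226 of 18669 genes (6.57%). In that fit the log2 fold change was -1.11 for Lama3, -1.13 for Itga6, 1.26 for Lama5 and 1.5 for Itga5, while Itga2 came to 0.89, Itga2b to 1.13 and Itgb1 to -0.30. The lone chlordecone library is there assumed to vary like the 2 controls, which differed from each other less than any other pair of F1 libraries.

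**Figure D4:**
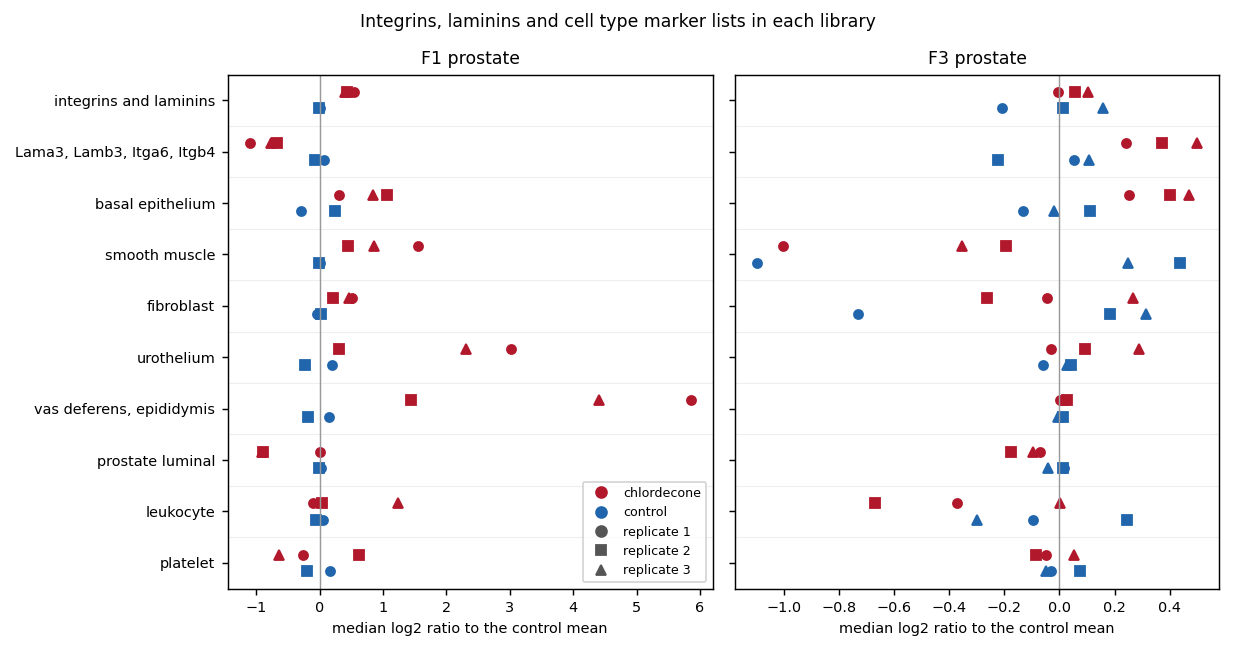
Median log2 ratio of each library to the control mean over the genes of a list, in F1 (left) and F3 (right), with chlordecone in red above control in blue and a shape per replicate number; the horizontal scales of the panels differ. In F1 the list of Lama3, Lamb3, Itga6 and Itgb4 lies below 0 in all 3 chlordecone libraries while basal epithelium, smooth muscle and vas deferens lists lie above 0.

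In F3 prostate Lama3, Lamb3, Itga6 and Itgb4 all had log2 fold changes above 0, at a median of 0.35. No member passed in the edgeR test (0 of 31 tested, lowest adjusted p = 0.389), in a comparison that called 10 of 16766 genes (0.0596%), 4 higher (0.0239%) and 6 lower (0.0358%). At an unadjusted p under 0.05 stood 4 members, all higher, where 4.97% of all genes stood on that side and 5.64% on the other. The groups did not overlap for 6 members, all higher, or 19.4% of the members against 16.6% of all genes, of which 8.34% were higher and 8.25% lower. The log2 fold change was above 0 for 18 of 31, or 58.1%, against 48.8% of all genes, and the median was 0.05 against -0.01 for all genes. The share of members without overlap lies near that of all genes. DESeq2 called 1 of 31 members, Lama1, and 249 of 16766 genes (1.49%).

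Lama3 stood at 208, 227 and 188 CPM in F3 chlordecone libraries, against 80.2, 107 and 184 CPM in control libraries. The lowest chlordecone value was just above the highest control, control 3, at a log2 fold change of 0.75 (SE 0.27, edgeR adjusted p = 0.439). Itgb4 stood at 18.9, 19.7 and 21.0 CPM in chlordecone libraries, against 15.1, 12.6 and 17.0 CPM in control libraries, without overlap, at 0.42 (SE 0.14, edgeR adjusted p = 0.424). The receptor subunit Itga6 and the Lamb3 chain did overlap. Itga6 stood at 109.8, 92.7 and 111 CPM in chlordecone libraries, against 120.2, 78.5 and 98.0 CPM in control libraries (log2 fold change 0.08, SE 0.17, edgeR adjusted p = 0.872). Lamb3 stood at 13.7, 18.8 and 21.1 CPM in chlordecone libraries, against 15.54, 13.3 and 14.9 CPM in control libraries (log2 fold change 0.29, SE 0.18, edgeR adjusted p = 0.557). The plot of CPM by library shows the reversed order of the Lama3 groups between generations.

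Basal epithelium markers summed to 169.7, 223 and 240.3 CPM in F3 chlordecone libraries, against 140.9, 166 and 140.2 CPM in control libraries, with 5 of 6 tested markers above 0 and 2 of them not overlapping, Krt15 and the basal cell factor Trp63. Urothelium markers summed to 201 CPM, 187 CPM and 223 CPM in chlordecone libraries, against 114 CPM, 158 CPM and 150.3 CPM in control libraries, and the uroplakin gene Upk1a was among the 4 genes called higher. The largest part of the sum was Upk1b, at 167, 149 and 179 CPM in chlordecone libraries, against 102, 104 and 115 CPM in control libraries. Of 4 tested urothelium markers 2 were higher without overlap, where 8.34% of all genes stood. Upk2 and Upk3b overlapped, at log2 fold changes of 0.31 and -0.58. Upk3a and Krt20 were not tested, and reached at most 0.099 and 0.0813 CPM in any F3 library. The part of basal and urothelial cells in the laminin values was not tested.

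The smallest p in F3 belonged to Lama1, which stood at 3.27, 5.98 and 4.99 CPM in chlordecone libraries, against 3.04, 2.19 and 1.83 CPM in control libraries. Every chlordecone value was above every control, at a log2 fold change of 1.01 (SE 0.29, edgeR adjusted p = 0.389; DESeq2 adjusted p = 0.0475). Itgb8 stood at 5.52, 5.34 and 5.52 CPM in chlordecone libraries, against 2.09, 2.98 and 4.18 CPM in control libraries, also without overlap, at 0.82 (SE 0.26, edgeR adjusted p = 0.411). Itgb6, an epithelial subunit that likewise activates latent TGF-beta, also had no overlap, at 1.82, 1.998 and 2.06 CPM in chlordecone libraries, against 1.06, 1.80 and 1.80 CPM in control libraries. Lama1 and Itgb6 were the 2 of 31 members whose groups did not overlap in the same direction in both generations, 6.45% against 2.41% of the 14079 genes tested in both.

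Itga5, Itgb3 and Itga8 had log2 fold changes below 0 in F3, with overlapping groups. Itga5, the fibronectin receptor subunit, stood at 5.29, 4.23 and 5.07 CPM in chlordecone libraries, against 3.70, 8.74 and 11.4 CPM in control libraries, at -0.71 (SE 0.36, edgeR adjusted p = 0.514). Itgb3 stood at 1.51, 2.60 and 1.75 CPM in chlordecone libraries, against 1.33, 2.97 and 5.06 CPM in control libraries, at -0.68 (SE 0.45, edgeR adjusted p = 0.588). Itga8, a subunit of mesenchyme and smooth muscle, stood at 1.95, 2.36 and 1.96 CPM in chlordecone libraries, against 1.68, 3.96 and 4.21 CPM in control libraries. Control 1 was the lowest control for each of these. Smooth muscle markers summed to 1668, 2598 and 2485 CPM in chlordecone libraries, against 1306, 4345 and 3674 CPM in control libraries, so that control 1 was also the lowest library for that list, and their part in these values was not tested. Without control 1 the log2 fold change of Itga5 was -1.05 and that of Itgb3 -1.04, with neither past the threshold.

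Of the members with the highest levels per kilobase in F3, all but Lama3 overlapped between the groups. Itgb1 stood at 266, 257 and 247 CPM in chlordecone libraries, against 211, 245 and 271 CPM in control libraries, at a log2 fold change of 0.08 (SE 0.13, edgeR adjusted p = 0.826). Itga3 stood at 119, 92.5 and 71.5 CPM in chlordecone libraries, against 102, 87.1 and 96.4 CPM in control libraries, at -0.02 (SE 0.18, edgeR adjusted p = 0.977). Itgb5 came to 0.02 (SE 0.13), Lamb2 to 0.14 (SE 0.14) and Lama5 to 0.16 (SE 0.15) on the same scale, each with overlapping groups. Itga2 was below 0.3 CPM in every F3 library and came to 0.28 (SE 0.57), and Itga2b, between 0.906 and 1.56 CPM, came to -0.24 (SE 0.28). A further 13 tested members overlapped between the groups, with Itga1, Itga7, Itga9, Itgb2, Itgb7, Lama2, Lamc3 and Itga4 below 0 and Lama4, Lamb1, Lamc1, Itga10 and Itga11 above 0.

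Whether chlordecone groups departed from their controls differently in the 2 generations was tested in 1 edgeR fit of all 11 libraries, as the F1 effect minus the F3 effect. It called 122 of 16980 genes (0.718%), and of the 32 members Lama3 was the 1 past the threshold. Its difference was -2.07 on the log2 scale (SE 0.37, edgeR adjusted p = 0.0277), made of a value of -1.24 in F1 and of 0.75 in F3. It was also the 1 of 31 members whose groups did not overlap in both generations in opposite directions, 3.23% against 2.98% of all genes. The call did not hold without F1 control 1, F1 control 2, F1 chlordecone 1, F1 chlordecone 3, F3 control 2 or any 1 of the F3 chlordecone libraries, where the adjusted p lay between 0.0576 and 0.108. It held without F1 chlordecone 2, F3 control 1 or F3 control 3, and the difference lay between -2.44 and -1.85 in all fits tried. Without F1 chlordecone 2 the members called were 9 of 32, in a fit that called 2320 of 16859 genes (13.8%).

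At an unadjusted p under 0.05 the test of the difference held 11 of 32 members, where 16.9% of all genes stood. The largest differences among them were 3.14 for Itga2b (SE 0.78, edgeR adjusted p = 0.0724) and 3.52 for Itga2 (SE 1.20, edgeR adjusted p = 0.156) with F1 the higher, and the second smallest p on the other side was that of Itga6 at -1.21 (SE 0.33, edgeR adjusted p = 0.0962). Itgb4, the partner of Itga6, differed by 0.0012 between generations (SE 0.34). Within the laminin-332 group the difference between generations was near 0 for Itgb4 and below -1 for Lama3, Itga6 and Lamb3. The 32 members do not share a locus and lie on 13 chromosomes, with Lama3 on chromosome 18 at 12333819 to 12583013 on the plus strand and Itga6 on chromosome 2 at 71745616 to 71858416 on the plus strand (GRCm38, GENCODE M21). Lama3, Lamb3, Itga6 and Itgb4 are among the 13 members that overlap an annotated gene on the other strand. The library kit marks strand, per the labels, but no source used here states whether the counting used strand, so reads of such neighbours cannot be told apart.

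Most intracellular partners of integrins had log2 fold changes above 0 in F1, as most members did. Of 23 adaptor and focal adhesion genes, 0 passed the edgeR threshold in either generation (lowest adjusted p = 0.201 in F1 and 0.455 in F3), while 21 of 23 in F1 and 14 of 23 in F3 had a log2 fold change above 0, at medians of 0.47 and 0.08. Over all genes, 51.4% in F1 and 48.8% in F3 were above 0, at medians of 0.02 and -0.01. Tns1, a tensin that links integrins to actin, stood at 505, 238 and 186 CPM in F1 chlordecone libraries, against 76.8 and 74.7 CPM in control libraries (2.03, SE 0.47, edgeR adjusted p = 0.201). Tln2, a talin that binds integrin beta tails, stood at 13.3, 11.2 and 10.7 CPM in F1 chlordecone libraries, against 4.72 and 3.00 CPM in control libraries (1.61, SE 0.39, edgeR adjusted p = 0.215). In F3 Tln2 stood at 83.2, 31.6 and 12.7 CPM in chlordecone libraries, against 17.1, 13.1 and 17.1 CPM in control libraries, with chlordecone 3 below all controls. Src, a kinase of focal adhesions, stood at 21.5, 8.89 and 16.2 CPM in F1 chlordecone libraries, against 4.56 and 5.34 CPM in control libraries (1.65, SE 0.44, edgeR adjusted p = 0.237).

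Basement membrane partners of laminins were also mostly above 0 in F1, with 14 of 17 tested genes above 0, a median of 1.05 and 0 past the threshold (lowest adjusted p = 0.139). Over all F1 genes, 51.4% were above 0, at a median of 0.02. Hspg2, which encodes the heparan sulfate proteoglycan perlecan, stood at 35.4, 35.6 and 28.9 CPM in F1 chlordecone libraries, against 12.3 and 11.3 CPM in control libraries (1.497, SE 0.26, edgeR adjusted p = 0.139). Bcam, a receptor for the Lama5 chain, stood at 13.3, 9.87 and 15.7 CPM in F1 chlordecone libraries, against 4.87 and 2.58 CPM in control libraries (1.80, SE 0.44, edgeR adjusted p = 0.215). Agrn, which encodes the laminin-binding proteoglycan agrin, stood at 19.6, 25.7 and 19.0 CPM in F1 chlordecone libraries, against 11.4 and 7.83 CPM in control libraries (1.16, SE 0.32, edgeR adjusted p = 0.247). In F3 the list had 11 of 18 above 0, a median of 0.07 and 0 past the threshold (lowest adjusted p = 0.494). That was 61.1% above 0, against 48.8% of all F3 genes, whose median was -0.01.

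The hemidesmosome partners of Itgb4 had log2 fold changes from 0.0073 to 1.26 in F1, where those of Lama3 and Itga6 were below 0. The 4 genes stood at a median of 0.86 (0.02 for all genes) and with 0 past the threshold (lowest adjusted p = 0.457). For 2 of them the groups did not overlap and chlordecone was higher, where 16.2% of all genes stood. Lowest was Dst, which was nearly unchanged, at 154, 220 and 130 CPM in F1 chlordecone libraries, against 176 and 158 CPM in control libraries. Col17a1, the transmembrane collagen of hemidesmosomes, stood at 5.15, 7.91 and 3.22 CPM in F1 chlordecone libraries, against 3.14 and 1.69 CPM in control libraries (1.17, SE 0.62, edgeR adjusted p = 0.530). In F3 it stood at 18.8, 20.8 and 21.0 CPM in chlordecone libraries, against 11.2, 12.3 and 15.3 CPM in control libraries, without overlap (0.65, SE 0.15, edgeR adjusted p = 0.330). Cd151, a tetraspanin that binds Itga3 and Itga6, stood at 146, 30.4 and 116 CPM in F1 chlordecone libraries, against 42.4 and 39.0 CPM in control libraries, the same order of libraries as Itgb1. Plec, the plectin gene, came to 0.55 in F1 (SE 0.31) and 0.26 in F3 (SE 0.18).

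The 6 integrin alpha subunits named by a letter, which the name rule leaves out, had 3 genes above 0 in F1 and 5 in F3, with 0 past the threshold in either (lowest adjusted p = 0.264 in F1 and 0.465 in F3). Among all genes, 51.4% in F1 and 48.8% in F3 were above 0. Itgav, the alpha subunit that pairs with Itgb5, Itgb6 and Itgb8, stood at 52.3, 48.0 and 52.6 CPM in F1 chlordecone libraries, against 71.3 and 74.4 CPM in control libraries, lower in each (-0.51, SE 0.23, edgeR adjusted p = 0.450). Itgam, the alpha subunit of myeloid cells that pairs with Itgb2, stood at 3.96, 2.18 and 10.8 CPM in F1 chlordecone libraries, against 0.419 and 0.890 CPM in control libraries (3.09, SE 0.90, edgeR adjusted p = 0.264), and like Itgb2 was highest in chlordecone 3.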

How the data were processed

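Poly-A RNA from prostate was sequenced from stranded libraries, per the labels' protocols. The authors deposited 1 table of raw counts per gene for each generation; the submitters' processing notes name HTSeq 0.6.1, TopHat2 2.0.14 and the build mm10. A column letter of C was taken for control and K for chlordecone (kepone). The authors' own fold changes and p-values were not used.

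From the counts, edgeR 4.0.16 in R 4.3.3 fitted each generation over all its genes (filterByExpr with a minimum count of 10 and a minimum total of 15, TMM scaling, quasi-likelihood test, two-sided, Benjamini-Hochberg over all genes tested, threshold 0.05). A joint fit of the 11 libraries tested the difference between generations. F1 was planned as 3 against 3 libraries and run as 3 against 2. CPM used TMM library sizes. Log2 ratios per library were taken after adding 0.5 CPM. DESeq2 1.42.0, other scalings and filters, a replicate block and leaving out libraries were alternatives. The main edgeR fits of each generation and of the difference were tested on simulated counts, with the same variability set for every gene. No such test is given here for the alternatives. Exon lengths and coordinates came from GENCODE M21; the F1 table's own start and end matched it for 0 of 32 members, the F3 table's for 25, and neither is printed. Genes with full statistics were the members past the threshold, the 6 with the smallest p and the 5 with the highest level per length in each generation, and Lama3, Lamb3, Itga6 and Itgb4. One gene is counted among the members but not reported singly here, nor in the plots. From each partner list up to 3 genes with the smallest p in F1 were named, and Dst was named beside them. The members and lists were chosen with earlier results of these data known.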

Additional observations from a re-analysis of the deposited data

Results flagged for a closer look

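Lama3 is listed because the effect of chlordecone differed between the generations by the test of the difference itself. The F1 effect minus the F3 effect was -2.07 on the log2 scale (SE 0.37, edgeR adjusted p = 0.0277), and it lay below both controls in 3 of 3 F1 chlordecone libraries and above all controls in 3 of 3 F3 chlordecone libraries. The call was lost in 8 of 11 fits that left out 1 library, with adjusted p up to 0.108.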

How the results depend on the processing

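No paired design is given by the labels, so the replicate block is given once. Same-numbered libraries did not deviate together in F3 (r of 0.131, 0.0018 and 0.0019). In F1 r was 0.048 and 0.058. With 2 controls, each F1 r to control 1 is the opposite of that to control 2, so these values cannot decide on pairing. In F1 replicate 3 held chlordecone 3 alone, so the block term took up that library. The F1 effect with the block therefore rests on chlordecone 1 and 2 against control 1 and 2, also within the difference between generations. With the block, 322 F1 genes and 3 members (Itga2, Itga2b and Itgb3) passed, at a median of 0.69 over the members. The difference between generations held 49 genes and 0 members, with Lama3 at -2.08 (edgeR adjusted p = 0.116). In F1 the count of 5 called genes became 14 with upper-quartile scaling, 21 without a filter, 719 with DESeq2, 930 in 1 fit of all libraries and 1226 without chlordecone 1 and 3. Members called in F1 were then 0, 0, 4, 6 and 4. Their median of 0.55 became 0.66 without a filter, 0.63 with a minimum of 1 CPM and 0.64 in 1 fit of all libraries. Upper-quartile scaling moved the median of all F1 genes to -0.12. Leaving out 1 library gave 0 to 2604 F1 genes, 0 to 11 members and a median of 0.59 to 0.72. In F3, 38 genes passed without a filter, 249 genes and 1 member with DESeq2 and 2 genes in 1 fit of all libraries, where the members' median was 0.11; leaving out 1 library gave 7 to 41 genes. For the difference between generations, 192 genes passed with a minimum of 1 CPM and 1151 genes and 6 members with DESeq2; leaving out 1 library gave 27 to 2320 genes, 0 to 9 members and a Lama3 difference of -2.44 to -1.85.

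Of 388 log2 fold changes of the 15 members given in full under the alternatives, 346 kept direction and side of the threshold, 27 passed it newly and 15 reversed. In F1 the reversals were Itgb8 (-1.51 with the replicate block and -0.58 to 0.67 leaving out 1 library) and, without chlordecone 1 and 3, Itgb1 (-0.30) and Itgb5 (-0.0701). In F3 they were Itgb5 (-0.0266 with upper-quartile scaling and -0.0600 to 0.0695 leaving out 1 library), Itga3 (0.0350 in 1 fit of all libraries and -0.21 to 0.14 leaving out 1 library), Itgb1 (-0.0055 to 0.17), Itga2 (-0.0939 to 0.995) and Itga6 (-0.0739 to 0.25), the last 3 leaving out 1 library. The causes were not tested. F1 libraries were shallower than F3, and Itgb8 had 46 counts over all F1 libraries, at a mean of 0.46 CPM. The part of depth in these values was not tested.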
